A study of Mus musculus with 12 samples.

Results

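The Hox genes encode homeodomain transcription factors that give cells of the embryo their position along the body axis. Mice carry 39 of them in 4 clusters, named Hoxa to Hoxd, and all 39 were found among the 22911 genes listed in both deposited tables by their symbol, which is Hox, a cluster letter and a paralog number. The Hoxa cluster gave 11 of these genes, the Hoxb cluster 10, and the Hoxc and Hoxd clusters 9 each. Expression was measured by RNA-Seq in epiblast-like cells (EpiLCs), a culture model of the epiblast shortly after implantation, in which the Hox clusters are largely kept silent. Females were *Kdm5c* fl/fl or *Kdm5c* Δ/Δ and males *Kdm5c* flY or *Kdm5c* ΔY, with 3 libraries for each of these 4 groups, and the labels give the strain of all groups as C57BL/6J and the controls as wild type for *Smcx*, an older name of *Kdm5c*. *Kdm5c* is an X-linked gene that encodes a histone demethylase of methylated H3K4. The controls carried the floxed allele, and the Δ allele lacks exons that encode the catalytic domain. By the study's methods, the cells of all groups came from embryonic stem cell (ESC) lines, 3 independent lines for each genotype. ESC lines were derived and cultured on mouse embryonic fibroblasts as feeders. They were then passaged on gelatin with inhibitors of GSK3 and MEK and with LIF. The cells were then kept for 48 h in N2B27 medium with 10 ng/ml FGF2 and 20 ng/ml Activin A on fibronectin.

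Within a cluster, the Hox genes lie in the order of their paralog numbers. Genes with low numbers, at one end, are switched on first and are used up to the hindbrain, and those with high numbers come on later, in the trunk, tail and limbs. Before they are switched on, the clusters are covered by the Polycomb complexes and their histone mark H3K27me3, which oppose the H3K4 methylation that *Kmt2a* and *Kmt2b* deposit. Hox proteins bind DNA together with partners of the TALE class, the Pbx, Meis and Pknox proteins, and the first genes of the clusters respond to retinoic acid. In the text, paralogs 1 to 3 are called anterior (8 genes), paralogs 4 to 8 central (15 genes) and paralogs 9 to 13 posterior (16 genes).

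The sequences just before the annotated starts of 3 Hox genes are printed as examples. *Hoxb1* and *Hoxb3* were among the strongest decreases in female *Kdm5c* Δ/Δ EpiLCs, and *Hoxa11* rose there. Each is 250 bases long, is written 5′ to 3′ on the strand of the gene and was read from mm9. Capitals mark matches to TGATNNAT, a motif bound by Pbx and Hox proteins together, or to its reverse complement. The windows are chr11:96226816-96227065 (plus strand) for *Hoxb1*, chr11:96184390-96184639 (plus strand) for *Hoxb3* and chr6:52196214-52196463 (minus strand) for *Hoxa11*.
Hoxb1: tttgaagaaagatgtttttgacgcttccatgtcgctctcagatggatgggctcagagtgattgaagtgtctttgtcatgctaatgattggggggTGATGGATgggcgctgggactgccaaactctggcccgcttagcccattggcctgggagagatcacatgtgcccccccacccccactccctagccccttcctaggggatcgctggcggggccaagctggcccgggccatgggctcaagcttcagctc
Hoxb3: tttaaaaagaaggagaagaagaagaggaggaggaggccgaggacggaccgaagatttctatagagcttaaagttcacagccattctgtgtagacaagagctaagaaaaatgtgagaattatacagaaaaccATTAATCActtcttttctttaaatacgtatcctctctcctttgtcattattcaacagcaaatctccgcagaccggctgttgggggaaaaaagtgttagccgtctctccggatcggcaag
Hoxa11: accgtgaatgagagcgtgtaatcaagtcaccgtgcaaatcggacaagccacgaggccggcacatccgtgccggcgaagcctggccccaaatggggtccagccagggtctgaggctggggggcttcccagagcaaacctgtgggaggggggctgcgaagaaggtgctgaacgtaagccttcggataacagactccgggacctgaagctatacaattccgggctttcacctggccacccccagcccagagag
The motif was searched on both strands. It occurred in the windows of 6 of the 39 Hox genes (15.4%) and of 6.99% of 22375 protein-coding genes with windows of the same length. They included genes that fell in female mutants, a gene that rose (*Hoxb9*) and a gene that did not pass. *Hoxb2* and *Hoxb4*, which also fell, had no match. AGGTCA, a motif bound by the retinoic acid receptors, occurred in the windows of *Hoxd3*, *Hoxd4* and *Hoxd8* (7.69% of the Hox genes) and in 12.6% of all windows, and thus in none of those printed. The median window of the Hox genes held 11 CpG dinucleotides, and that of all protein-coding genes held 8. A match is a description of the letters only.

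Values are normalized counts, in which the size factor of each library scales its reads. The tables give the mean of each group, from which the reads of every library were worked out. Libraries are called A, B and C within each group by falling size factor, and values are given in that order. *Kdm5c*, the targeted gene, was at 2336, 2429 and 2315 in female *Kdm5c* fl/fl and at 1406, 1447 and 1505 in female *Kdm5c* Δ/Δ libraries. In males it was at 2195, 2110.1 and 2371 in *Kdm5c* flY and at 1897, 1943 and 1976 in *Kdm5c* ΔY libraries. The mutants were thus below the controls in every library of both sexes, by 0.70 on the log2 scale in females (adjusted p = 4.53e-09, limma) and by 0.20 in males (adjusted p = 0.271, limma). Reads on the deleted exons cannot be told from other reads of the gene in these tables. *Pou5f1*, a pluripotency factor, lay between 2750.3 and 4402 in the 12 libraries, and *Fgf5*, a marker of EpiLCs, lay between 124 and 404. Between 5516216 and 11092731 reads were recovered per library.

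Some libraries stood apart from the others of their group. Of 1431 olfactory and vomeronasal receptor genes, whose known place of expression is sensory neurons, 67.8% had a read in *Kdm5c* flY library A and 62.5% in *Kdm5c* flY library C, and only 4.05 to 8.32% in the other 10 libraries. The 90th percentile of these genes was 3.19 and 4.03 normalized counts per kb of exon in those 2 libraries and 0 in the others. In *Kdm5c* flY libraries A and C, 25 and 29 of the 39 Hox genes were at or under that level, so most low Hox values of the male controls were within the reads seen on receptor genes. In *Kdm5c* ΔY library A, *Sox1*, an early neural gene, was at 231, against 26.4 and 35.2 in libraries B and C, and *Gata6*, an endoderm gene, was at 39.8, against 212 and 205. Some results of males are therefore also given without such libraries. Without them, the male change of some genes that did not pass took the other sign. On the log2 scale, *Hoxa5* was at 0.04, and at -0.998 without *Kdm5c* ΔY library A. *Hoxd13* was at -0.43, and at 0.22 without *Kdm5c* flY libraries A and C.

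**Figure D1:**
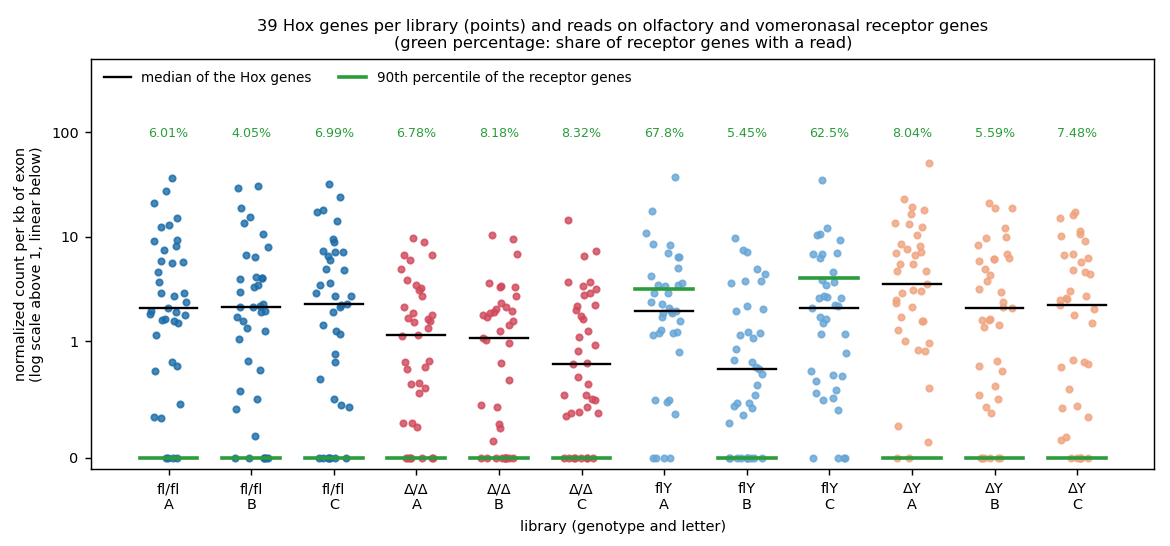
Normalized count per kb of exon (vertical axis, log scale above 1 and linear below) of the 39 Hox genes in each of the 12 libraries (horizontal axis). Points are genes, black lines the median of the Hox genes, and green lines the 90th percentile of olfactory and vomeronasal receptor genes, which is above 0 only in *Kdm5c* flY libraries A (3.19) and C (4.03), where it lies above the Hox median.

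The Hox genes were low in all groups. A count of 0 in a library allows up to 3 reads, which is 2.35 to 4.31 normalized counts, for counting error only. The summed level of the 39 genes was 542 to 629.7 in female *Kdm5c* fl/fl libraries and 204 to 250.0 in female *Kdm5c* Δ/Δ libraries. It was 184 to 506 in *Kdm5c* flY and 428 to 749 in *Kdm5c* ΔY libraries. The female groups did not overlap, while the male groups did, with *Kdm5c* flY library B lowest and *Kdm5c* ΔY library A highest. The tables of the sexes were made separately, so levels of females and males are set side by side without a test. Per kb of exon, the most abundant Hox gene of female *Kdm5c* fl/fl cells was *Hoxb3* (33.2), before *Hoxb2* (26.9), and *Hoxb1* (15.3) and *Hoxb4* (14.3) were also among the first. In female *Kdm5c* Δ/Δ cells the order began with *Hoxb9* (11.3) and *Hoxd11* (8.80). In *Kdm5c* flY cells it began with *Hoxd11* (26.8), whose counts were 204, 40.3 and 191. That mean rested on libraries A and C, those with reads on receptor genes, and in library B no Hox gene was above 9.66 per kb. In *Kdm5c* ΔY cells *Hoxb9* (18.4) and *Hoxb3* (14.5) were among the first. The order was thus led by anterior genes and *Hoxb4* in female controls, and posterior genes were among the first in the other 3 groups.

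In females, most anterior Hox genes fell in the mutant, while posterior genes changed in both directions. Limma called 16 of the 39 Hox genes lower in *Kdm5c* Δ/Δ cells (41.0%) and 3 higher (7.69%), where of all 19572 genes tested 24.7% were called lower and 25.4% higher at an adjusted p under 0.05. Fold changes are on the scale of log2(normalized count + 1), which understates the change of genes with few reads. The median log2 fold change was -0.87 over the Hox genes and 0.00 over all genes tested. By position, 6 of 8 anterior genes fell (median -1.85), 7 of 15 central genes fell (median -1.13), and of 16 posterior genes 3 fell and 3 rose (median -0.20). By cluster, 7 of 10 Hoxb, 4 of 11 Hoxa, 4 of 9 Hoxd and 1 of 9 Hoxc genes fell. The summed level of the anterior genes was 282 to 311 in *Kdm5c* fl/fl and 30.3 to 53.3 in *Kdm5c* Δ/Δ libraries, while that of the posterior genes was 115 to 159.9 and 126 to 144, with overlap. In such bulk samples, fewer cells that express a gene and less RNA per cell cannot be told apart, and p-values measure only the spread between these libraries. Below, overlap of the groups only describes the values of a gene. Its share over all genes was not worked out, and for a gene that passed it adds no support to the call.

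**Figure D2:**
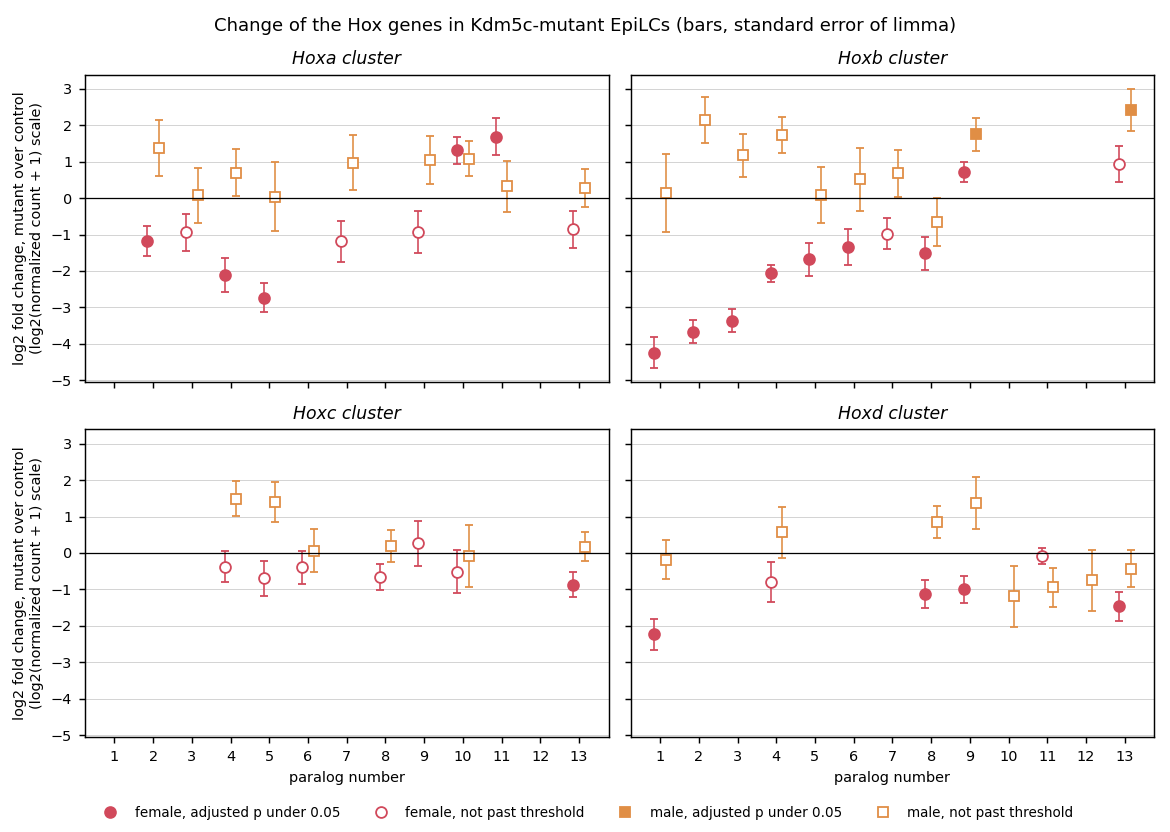
Log2 fold change of mutant over control on the log2(normalized count + 1) scale (vertical axis) of the Hox genes by paralog number (horizontal axis), 1 panel per cluster, without genes that are not reported here and without points of genes with at most 3 reads in every library of that sex. Circles are females and squares males, filled where limma's adjusted p was under 0.05, and bars are standard errors. In females, *Hoxb1* (-4.24), *Hoxb2* (-3.67) and *Hoxb3* (-3.37) are lowest, and the filled male points are *Hoxb9* (1.75) and *Hoxb13* (2.42).

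The strongest decreases were at the anterior end of the Hoxb cluster. *Hoxb1*, which specifies a segment of the hindbrain and is among the first Hox genes expressed at gastrulation, was at 30.2, 36.2 and 40.0 in *Kdm5c* fl/fl and at 0, 2.53 and 1.01 in *Kdm5c* Δ/Δ libraries, where it had 0, 3 and 1 reads. It fell by 4.24 (SE 0.44, adjusted p = 2.10e-07, limma), a size that depends on the pseudocount, as it was 5.74 with a pseudocount of 0.1. *Hoxb2*, a hindbrain gene next to it, was at 89.5, 96.6 and 80.0 in *Kdm5c* fl/fl and at 10.2, 6.73 and 3.03 in *Kdm5c* Δ/Δ libraries. It fell by 3.67 (SE 0.32, adjusted p = 2.73e-08, limma), from 88.7 ± 8.32 to 6.65 ± 3.58 (SD, n = 3). *Hoxb3* was at 111, 92.2 and 96.7 in *Kdm5c* fl/fl and at 18, 5.89 and 6.06 in *Kdm5c* Δ/Δ libraries and fell by 3.37 (SE 0.32, adjusted p = 8.23e-08, limma). Each of these genes thus had all its *Kdm5c* fl/fl values several-fold above all its *Kdm5c* Δ/Δ values. The annotated antisense transcript *Hoxb3os* covers 49.4% of the exonic bases of *Hoxb2* and 37.9% of those of *Hoxb3*, and whether reads were counted by strand is not given in the sources used here, so reads of the antisense transcript cannot be told apart from those of *Hoxb2* and *Hoxb3*.

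On the log2(normalized count + 1) scale, the decrease was smaller towards the middle of the Hoxb cluster, and *Hoxb9* rose. Past *Hoxb4* that order depends on the pseudocount. With 0.1, the log2 fold change was -2.13 for *Hoxb4*, -3.02 for *Hoxb5*, -2.50 for *Hoxb6*, -1.14 for *Hoxb7* and -2.90 for *Hoxb8*. *Hoxb4*, a central gene that is also known in blood stem cells, was at 63.4, 56 and 58.9 in *Kdm5c* fl/fl and at 13.3, 15.2 and 12.1 in *Kdm5c* Δ/Δ libraries and fell by 2.06 (SE 0.23, adjusted p = 6.07e-07, limma). The summed level of *Hoxb1* to *Hoxb4* was 276 to 294 in *Kdm5c* fl/fl and 22.2 to 41.5 in *Kdm5c* Δ/Δ libraries. Beyond *Hoxb4* the levels were low. *Hoxb5* was at 5.03, 5.49 and 3.34 against 1.57, 0 and 1.01 and fell by 1.68. *Hoxb6* was at 6.04, 3.29 and 4.45 against 2.35, 0 and 2.02 and fell by 1.34. *Hoxb8* was at 5.03, 2.20 and 3.34 against 0.784, 0 and 1.01 and fell by 1.51. The libraries of the groups did not overlap for these 3 genes, which act in the trunk. *Hoxb7* was at 11.1, 8.78 and 11.1 against 6.27, 7.58 and 2.02, with a log2 fold change of -0.98 that did not pass (adjusted p = 0.0638, limma). *Hoxb7* and *Hoxb8* share 1069 bases of annotated exon on the same strand, and how shared bases were counted is not given in the sources used here.

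**Figure D3:**
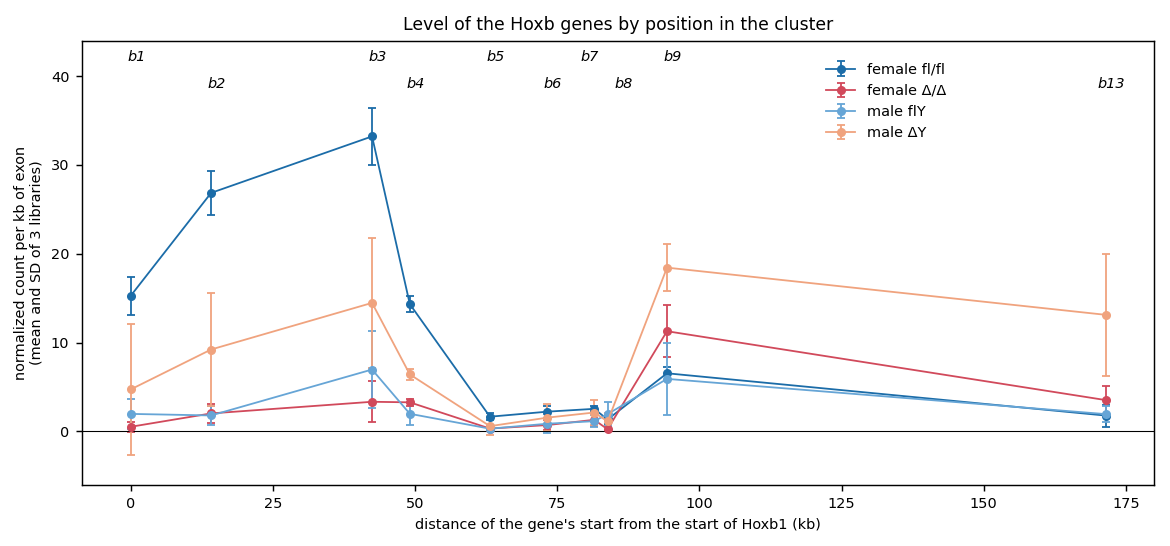
Normalized count per kb of exon (vertical axis, mean and SD of 3 libraries) of the 10 Hoxb genes against the distance of their start from that of *Hoxb1* in kb (horizontal axis), 1 line per group. Female *Kdm5c* fl/fl cells are highest at *Hoxb1* to *Hoxb4*, from 14.3 to 33.2 per kb, and *Kdm5c* ΔY cells at *Hoxb9* (18.4) and *Hoxb13* (13.1).

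In the Hoxa cluster, *Hoxa2*, which patterns the neural crest of the face, was at 9.05, 5.49 and 5.56 in *Kdm5c* fl/fl and at 1.57, 2.53 and 3.03 in *Kdm5c* Δ/Δ libraries and fell by 1.18. Among the central genes, *Hoxa4* was at 9.05, 5.49 and 7.78 against 0, 2.53 and 1.01 and fell by 2.11. *Hoxa5*, which acts in the lung and the neck skeleton, was at 17.1, 19.8 and 16.7 against 1.57, 3.37 and 1.01 and fell by 2.73 (SE 0.40, adjusted p = 1.28e-05, limma). These 3 genes were lower in every *Kdm5c* Δ/Δ library than in any *Kdm5c* fl/fl library. *Hoxa7* was at 6.04, 5.49 and 7.78 against 4.70, 0 and 5.05, with -1.18 on the log2 scale, and did not pass (adjusted p = 0.0939, limma). It shares 20.4% of its exonic bases with a noncoding gene on the other strand.

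In the Hoxd and Hoxc clusters, 5 genes fell. *Hoxd1*, the first gene of its cluster, was at 14.1, 7.69 and 11.1 in *Kdm5c* fl/fl and at 3.13, 0.842 and 1.01 in *Kdm5c* Δ/Δ libraries and fell by 2.23 (SE 0.43, adjusted p = 2.91e-04, limma). *Hoxd8* was at 8.05, 11 and 10.0 against 3.13, 5.89 and 3.03 and fell by 1.13, and *Hoxd9* was at 10.1, 8.78 and 14.5 against 3.92, 5.05 and 6.06 and fell by 1.00. None of these 3 genes had overlapping groups. *Hoxd13*, the last gene of the cluster, which shapes the digits, was at 23.1, 9.88 and 17.8 against 3.92, 8.42 and 4.04 and fell by 1.47 (adjusted p = 0.00499, limma). *Hoxc13*, a gene of hair and nail, was at 20.1, 19.8 and 17.8 against 16.5, 6.73 and 9.10 and fell by 0.87. *Hoxc8* was at 13.1, 7.69 and 11.1 against 6.27, 7.58 and 5.05 (log2 fold change -0.66) and *Hoxd11*, a limb gene, at 67.4, 36.2 and 51.1 against 52.5, 51.3 and 39.4 (log2 fold change -0.08), and neither passed (adjusted p = 0.149 and 0.795, limma).

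The 3 Hox genes that rose in female *Kdm5c* Δ/Δ cells were posterior. *Hoxa10*, which patterns the lower spine and the uterus, was at 3.02, 6.59 and 5.56 in *Kdm5c* fl/fl and at 14.9, 12.6 and 13.1 in *Kdm5c* Δ/Δ libraries and rose by 1.31 (SE 0.37, adjusted p = 0.00628, limma). *Hoxa11*, a gene of the forearm and kidney, was at 2.01, 0 and 2.22 against 9.40, 3.37 and 6.06 and rose by 1.68 (SE 0.51, adjusted p = 0.00979, limma). Its antisense partner covers 38.6% of its exonic bases, and the deposited row *Hoxa11os*, at 5.03, 0 and 1.11 against 2.35, 6.73 and 1.01, did not pass (adjusted p = 0.39, limma). *Hoxb9*, which acts in the thorax, was at 15.1, 16.5 and 18.9 against 22.7, 26.9 and 37.4 and rose by 0.73 (SE 0.27, adjusted p = 0.035, limma). The groups did not overlap for any of the 3. *Hoxb13*, the last gene of the Hoxb cluster, was at 4.02, 6.59 and 1.11 against 11, 4.21 and 8.08 and overlapped (log2 fold change 0.94, adjusted p = 0.122, limma).

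Of the 19 calls in females, 11 held under every alternative in which the gene was tested, and 8 were lost when single libraries were left out or under other settings. Among the 11 were *Hoxa4*, *Hoxa5*, *Hoxa10*, *Hoxb1*, *Hoxb2*, *Hoxb3*, *Hoxb4*, *Hoxb5*, *Hoxd1* and *Hoxd13*. With a pseudocount of 0.1, *Hoxb6* (adjusted p = 0.076, limma), *Hoxc13* (0.0583) and *Hoxd9* (0.0528) did not pass. Scaled by the total of recovered reads, *Hoxb9* did not pass (adjusted p = 0.0529, limma). The other losses came with left-out libraries. *Hoxa2* did not pass without *Kdm5c* fl/fl library A (-0.98 on the log2 scale) or *Kdm5c* Δ/Δ library A (-1.0). *Hoxa11* did not pass without *Kdm5c* fl/fl library B (1.14) or *Kdm5c* Δ/Δ library A (1.38). *Hoxb6* did not pass without *Kdm5c* fl/fl library A (-1.16) or C (-1.34) or *Kdm5c* Δ/Δ library B (-0.78). Each kept its direction in these fits. *Hoxb8* did not pass without *Kdm5c* fl/fl library A (-1.28) or *Kdm5c* Δ/Δ library B (-1.21). *Hoxb9* did not pass without *Kdm5c* fl/fl library A (0.66) or B (0.72) or *Kdm5c* Δ/Δ library B (0.77) or C (0.54). *Hoxd8* did not pass without *Kdm5c* fl/fl library B (-1.04) or C (-1.10) or *Kdm5c* Δ/Δ library A (-1.01) or C (-0.99). Again each kept its direction. *Hoxd9* did not pass without *Kdm5c* fl/fl library A (-1.05) or C (-0.81) or *Kdm5c* Δ/Δ library A (-0.86) or B (-1.01). *Hoxc13* did not pass without *Kdm5c* fl/fl library A (-0.83), B (-0.85) or C (-0.92) or *Kdm5c* Δ/Δ library B (-0.61) or C (-0.80).

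**Figure D4:**
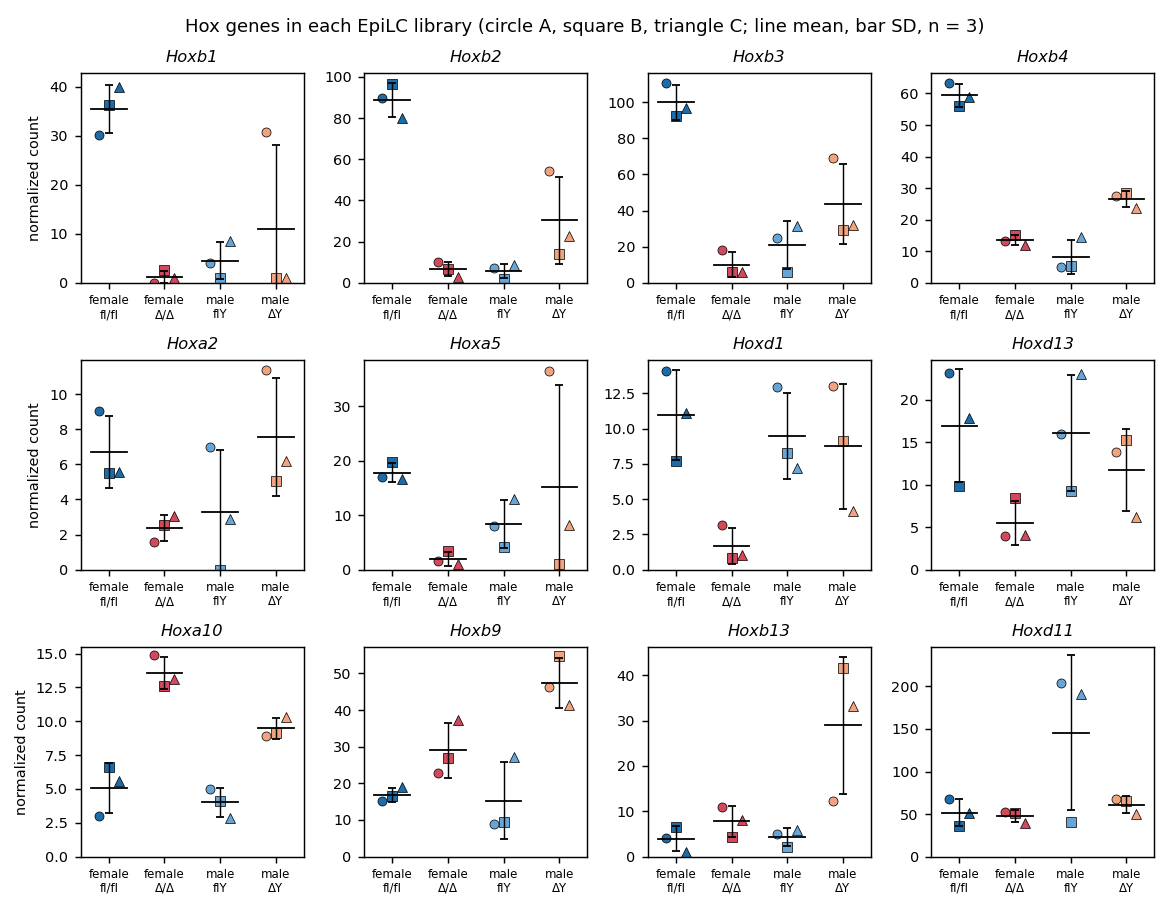
Normalized counts (vertical axis, linear from 0, each panel with its own scale) of 12 Hox genes in the 4 groups (horizontal axis). Each point is 1 library, circles A, squares B and triangles C, and lines and bars are the mean and SD of 3 libraries. *Hoxb1* to *Hoxb4* are highest in female *Kdm5c* fl/fl cells, where the lowest values are 30.2, 80.0, 92.2 and 56, and *Kdm5c* ΔY library A is high for *Hoxb1*, *Hoxb2*, *Hoxb3* and *Hoxa5*.

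In males, the median change of the Hox genes was positive, but only 2 passed the test, a share near that of all genes. The summed levels of the groups overlapped, at 184 to 506 in *Kdm5c* flY and 428 to 749 in *Kdm5c* ΔY libraries. The sign of some genes depended on *Kdm5c* ΔY library A, as given for *Hoxa5* above and *Hoxb1* below. Limma called 2 of 39 genes higher in *Kdm5c* ΔY cells (5.13%), where 4.21% of 21872 genes tested were called higher. It called 0 lower, against 3.59% of all genes, and 0 were lower at an unadjusted p under 0.05 and 0 by limma voom. At an unadjusted p under 0.05, 9 were higher, where 5394 of the 21872 genes tested were under it in either direction. The median log2 fold change was 0.32 over the Hox genes and -0.16 over all genes tested, so the background was itself shifted. Standard errors were larger in males than in females for most Hox genes, as with 0.63 against 0.32 for *Hoxb2* and 0.49 against 0.23 for *Hoxb4*. Counts of calls are therefore not comparable between the sexes.

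The 2 genes that passed in males were posterior Hoxb genes. *Hoxb13*, known from the tail and the prostate, was at 4.99, 2.07 and 5.75 in *Kdm5c* flY and at 12.2, 41.6 and 33.1 in *Kdm5c* ΔY libraries, without overlap. It rose by 2.42 (SE 0.58, adjusted p = 0.0367, limma). *Hoxb9* was at 8.97, 9.30 and 27.3 against 46.3, 54.7 and 41.4, also without overlap, and rose by 1.75 (SE 0.46, adjusted p = 0.047, limma). It was the only Hox gene called higher in both sexes. Both calls were lost under several settings. *Hoxb13* did not pass by limma voom (adjusted p = 0.0709). *Hoxb9* did not pass with a pseudocount of 0.1 (adjusted p = 0.0513, limma), when scaled by the total of recovered reads (0.0531) or with the level of receptor genes subtracted (0.0996). *Hoxb13* did not pass without *Kdm5c* flY library A (2.56), B (2.07) or C (2.64), nor without *Kdm5c* ΔY library B (2.09) or C (2.25). *Hoxb9* did not pass without *Kdm5c* flY library A (1.50) or B (1.52), nor without *Kdm5c* ΔY library B (1.65) or C (1.85). Without both *Kdm5c* flY libraries with reads on receptor genes, *Hoxb13* was 3.12 and *Hoxb9* 2.22 on the log2 scale, and 0 of all 19038 genes tested were called by limma, with 2803 at an unadjusted p under 0.05.

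The anterior genes that fell in female mutants were low in male controls and uneven among male mutants. *Hoxb1* was at 3.99, 1.03 and 8.62 in *Kdm5c* flY and at 30.8, 1.01 and 1.03 in *Kdm5c* ΔY libraries, so library A alone was high (log2 fold change 0.14, adjusted p = 0.943, limma). Without *Kdm5c* ΔY library A its log2 fold change was -1.19. *Hoxb2* was at 6.98, 2.07 and 8.62 against 54.4, 14.2 and 22.8, without overlap (log2 fold change 2.14, adjusted p = 0.0719, limma). *Hoxb3* was at 24.9, 6.20 and 31.6 against 69, 29.4 and 32.1 and overlapped (1.18, adjusted p = 0.249, limma). In *Kdm5c* ΔY library A, *Hoxb1*, *Hoxb2* and *Hoxb3* were each above libraries B and C. *Hoxa2* was at 6.98, 0 and 2.87 against 11.4, 5.07 and 6.21 and *Hoxd1* at 13, 8.27 and 7.19 against 13, 9.12 and 4.14, and both overlapped. The summed level of the anterior genes was 38.3 to 106 in *Kdm5c* flY and 109 to 321 in *Kdm5c* ΔY libraries.

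Among the central genes of males, *Hoxb4* was at 4.99, 5.17 and 14.4 in *Kdm5c* flY and at 27.6, 28.4 and 23.8 in *Kdm5c* ΔY libraries. Its groups did not overlap, and with 1.73 on the log2 scale it missed the threshold in the main test (adjusted p = 0.0607, limma), while it passed by limma voom (1.86). *Hoxc4* was at 3.99, 3.10 and 5.75 against 12.2, 16.2 and 12.4, without overlap (1.49, adjusted p = 0.0914, limma). *Hoxd8* was at 7.98, 10.3 and 17.2 against 21.1, 16.2 and 27.9 and *Hoxc8* at 24.9, 11.4 and 15.8 against 18.7, 14.2 and 25.9, and both overlapped. *Hoxa4* was at 7.98, 3.10 and 1.44 against 11.4, 5.07 and 4.14. *Hoxa5* was at 7.98, 4.14 and 12.9 against 36.5, 1.01 and 8.27, and *Hoxa7* at 9.97, 2.07 and 4.31 against 30.0, 6.08 and 5.17. For *Hoxa4*, *Hoxa5* and *Hoxa7*, *Kdm5c* ΔY library A was again the highest. *Hoxb5* was at 0, 1.03 and 1.44 against 4.87, 0 and 0, and *Hoxb6* at 0.997, 0 and 4.31 against 6.49, 0 and 3.10. *Hoxb7* was at 7.98, 3.10 and 2.87 against 14.6, 3.04 and 8.27, and *Hoxb8* at 8.97, 2.07 and 4.31 against 5.68, 1.01 and 2.07. The groups overlapped for these 4.

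Among the posterior genes, *Hoxa10* was at 4.99, 4.14 and 2.87 in *Kdm5c* flY and at 8.93, 9.12 and 10.3 in *Kdm5c* ΔY libraries, without overlap, but did not pass (1.09 on the log2 scale, adjusted p = 0.199, limma). *Hoxa11* was at 4.99, 3.10 and 7.19 against 1.62, 10.1 and 12.4 and overlapped. *Hoxd9* was at 14, 1.03 and 10.1 against 18.7, 18.2 and 14.5, without overlap and with *Kdm5c* flY library B lowest (1.37, adjusted p = 0.264, limma). *Hoxd11* was far higher in *Kdm5c* flY libraries A and C than in any other library, at 204, 40.3 and 191 in *Kdm5c* flY and 67.4, 65.9 and 49.6 in *Kdm5c* ΔY libraries. Those are the libraries with reads on receptor genes. Its log2 fold change was -0.94 (adjusted p = 0.297, limma), -1.69 and past the threshold without *Kdm5c* flY library B, and 0.57 without libraries A and C. *Hoxd13* was at 16, 9.30 and 23 against 13.8, 15.2 and 6.21, and *Hoxc13* at 20.9, 23.8 and 17.2 against 33.3, 24.3 and 15.5, and both overlapped. *Hoxc12* was at 0 in all *Kdm5c* flY libraries and had 2, 3 and 3 reads in *Kdm5c* ΔY libraries, none of which exceeds the 3 reads that a count of 0 allows, so no fold is given.

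The change of the Hox genes differed between the sexes at the anterior end. The interaction of sex and genotype was tested over all 12 libraries. There a separate scaling of the tables cancels out for genes with many reads, but not fully at low counts, where the added 1 weighs in. The change was more positive in males for 9 of 39 genes (23.1%), against 10.6% of 22014 genes tested. It was more negative for 0 (10.7% of all genes), also 0 at an unadjusted p under 0.05 and by limma voom. At that unadjusted p, 14 Hox genes were more positive, where 7415 of the 22014 genes were under it in either direction. The median difference was 1.48 over the Hox genes and -0.20 over all genes. By position these were 4 of 8 anterior, 4 of 15 central and 1 of 16 posterior genes. *Hoxb2* differed most, with 5.80 (SE 0.76, adjusted p = 1.43e-04, limma), before *Hoxb3* with 4.54 (SE 0.77, adjusted p = 8.87e-04, limma). *Hoxb4* differed by 3.79 (SE 0.50, adjusted p = 1.53e-04, limma). These 3 passed under all 19 settings, including those without *Kdm5c* ΔY library A and without *Kdm5c* flY libraries A and C. The calls of 4 genes depended on single libraries and other settings. With a pseudocount of 0.1, *Hoxa4* (adjusted p = 0.0563, limma), *Hoxb1* (0.0507) and *Hoxc4* (0.075) did not pass, and without *Kdm5c* flY libraries A and C *Hoxb1* did not (0.0508). *Hoxa4* did not pass without female *Kdm5c* fl/fl library A or C, female *Kdm5c* Δ/Δ library A or C, or *Kdm5c* flY library C, with differences of 2.34 to 2.85. *Hoxb1* did not pass without female *Kdm5c* fl/fl library A, B or C, female *Kdm5c* Δ/Δ library A or C, or *Kdm5c* flY library B, with differences of 3.79 to 4.49. *Hoxd8* did not pass without female *Kdm5c* fl/fl library B or C, female *Kdm5c* Δ/Δ library A or C, *Kdm5c* flY library A, or *Kdm5c* ΔY library C, with differences of 1.75 to 1.95. These fits kept the direction. *Hoxc4* did not pass without female *Kdm5c* fl/fl library A, B or C, female *Kdm5c* Δ/Δ library A or B, *Kdm5c* flY library A, or *Kdm5c* ΔY library B or C, with differences of 1.49 to 1.98. *Hoxc12* was also called, but it had at most 3 reads in any library, so no difference is given, and the call was lost with a minimum mean of 1 (adjusted p = 0.0513, limma). The 3 genes that rose in females did not pass here, with differences of -0.23 for *Hoxa10* (SE 0.54), -1.36 for *Hoxa11* (SE 0.93) and 1.03 for *Hoxb9* (SE 0.54).

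The low central and posterior genes *Hoxc4* and *Hoxc12* were at 6.04, 5.49 and 8.89 and 2.01, 1.10 and 0 in female *Kdm5c* fl/fl and at 5.49, 2.53 and 8.08 and 0.784, 0.842 and 0 in female *Kdm5c* Δ/Δ libraries, and overlapped. The other 13 Hox genes did not pass in females, in males or for the difference between the sexes and had no group mean of 10, though under alternatives *Hoxa3* passed in 1 of 11 fits in females, and *Hoxc5* in 4 and *Hoxd10* in 1 of 18 fits for the difference between the sexes. The 4 of the Hoxa cluster (*Hoxa3*, *Hoxa6*, *Hoxa9* and *Hoxa13*) reached at most 7.78, 5.05, 5.98 and 16.2 in a library of *Kdm5c* fl/fl females, *Kdm5c* Δ/Δ females, *Kdm5c* flY and *Kdm5c* ΔY males, in that order. The 5 of the Hoxc cluster (*Hoxc5*, *Hoxc6*, *Hoxc9*, *Hoxc10* and *Hoxc11*) reached at most 5.56, 4.70, 6.98 and 7.30, and the 4 of the Hoxd cluster (*Hoxd3*, *Hoxd4*, *Hoxd10* and *Hoxd12*) at most 4.02, 1.01, 7.19 and 4.06. No read was seen on *Hoxa6* in female *Kdm5c* fl/fl and *Kdm5c* ΔY libraries, on *Hoxd10* in female *Kdm5c* fl/fl, on *Hoxc11* in female *Kdm5c* Δ/Δ and on *Hoxc5* in *Kdm5c* flY libraries. Every Hox gene had a read in at least 1 group. *Hoxd3* and *Hoxd4* share 1725 bases of annotated exon, which is 67.4% of *Hoxd4*.

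Of 9 TALE genes, which encode the partners of the Hox proteins, 6 fell and 2 rose in female *Kdm5c* Δ/Δ cells, and in males 1 rose. For these and the following lists, the shares over all genes tested were 24.7% lower and 25.4% higher in females and 3.59% lower and 4.21% higher in males. *Pknox2* was at 73.4, 67 and 73.4 in *Kdm5c* fl/fl and at 4.70, 5.05 and 6.06 in *Kdm5c* Δ/Δ libraries (log2 fold change -3.53). *Meis1*, another partner, went the other way, from 19.1, 13.2 and 18.9 to 72.1, 53.9 and 71.7 (1.89). In males, *Pbx2* was at 665, 699 and 667 against 1096, 1158 and 1029 and rose by 0.69.

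Of 9 activators that act upstream of the clusters, 2 rose and 1 fell in females, and 3 rose in males. *Rarg*, a retinoic acid receptor, was at 645, 626 and 619 in *Kdm5c* fl/fl and at 1298, 1265 and 1328 in *Kdm5c* Δ/Δ libraries and rose by 1.04, while *Kmt2a* fell by 0.21. *Cdx1*, a direct activator of central and posterior Hox genes, was at 0, 1.03 and 2.87 in *Kdm5c* flY and at 45.4, 155 and 157 in *Kdm5c* ΔY libraries and rose by 5.72. It was at 25.1, 14.3 and 24.5 against 11.8, 16 and 21.2 in females (-0.36, adjusted p = 0.384, limma). *Cdx2* was at 0.997, 3.10 and 1.44 against 13.8, 11.2 and 15.5 in males and rose by 2.41. Of 14 Polycomb genes, 6 rose and 1 fell in females, and 2 rose and 1 fell in males. *Jarid2*, a subunit that guides the complex to DNA, was at 2488, 2321 and 2355 against 4586, 4889 and 4856 in females (1.00), and *Ezh2*, its methyltransferase, at 2218, 2085 and 2266 against 1577, 1759 and 1746 (-0.37). Of the 3 H3K27 demethylases, *Kdm6b* fell in females by 0.32, and *Kdm6a* and *Uty* did not pass in either sex.

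Of 22 measured genes that flank the clusters, 7 rose and 8 fell in female *Kdm5c* Δ/Δ cells, shares close to those of all genes (25.4% and 24.7%), with a median log2 fold change of 0.04, and 3 rose in males. *Calcoco2*, a neighbour on the Hoxb side, was at 64.4, 72.5 and 66.7 in *Kdm5c* fl/fl and 133, 177 and 149 in *Kdm5c* Δ/Δ libraries and rose by 1.15 in females and by 2.20 in males. *Evx1*, a homeobox gene next to *Hoxa13*, was at 4.02, 7.69 and 5.56 against 1.57, 2.53 and 1.01 and fell by 1.33. Of 4 noncoding RNAs of the clusters in the tables, *Hoxd3os1* had no read in any library, and *Hotair*, *Hottip* and *Hoxa11os* were tested where they had reads and did not pass.

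Markers of other cell types also differed between the groups, and their part in the Hox results was not tested. The 6 measured primitive streak and mesoderm markers summed to 166 to 195 in female *Kdm5c* fl/fl and to 168 to 195 in female *Kdm5c* Δ/Δ libraries, with 3 higher and 1 lower. The lower one was T, the streak factor, at 82.5, 114 and 93.4 against 10.2, 5.89 and 18.2. In males they summed to 68.2 to 77.8 and 379 to 942, and *Hand1* alone rose, from 17.9 to 25.8 to 333 to 902. *Mesp1*, which defines early mesoderm, had no read in female *Kdm5c* fl/fl and *Kdm5c* ΔY libraries. The 5 measured neural markers summed to 2342 to 2577 and 1762 to 1822 in female *Kdm5c* fl/fl and *Kdm5c* Δ/Δ libraries, with 1 higher and 2 lower, and to 1205 to 1412 and 957 to 2186 in *Kdm5c* flY and *Kdm5c* ΔY libraries. Most of the female sums was *Nes*, at 2306, 2265 and 2054.5 in *Kdm5c* fl/fl and 1708, 1745 and 1698 in *Kdm5c* Δ/Δ libraries. *Sox1* was at 197, 199.8 and 230.1 against 35.3, 21 and 18.2 in females. *Neurog2* had no read in female *Kdm5c* fl/fl libraries.

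All 6 endoderm markers rose in female *Kdm5c* Δ/Δ cells, from a sum of 172 to 220.1 to 2295 to 2443. In males they summed to 1151 to 1359.5 in *Kdm5c* flY and 199 to 934 in *Kdm5c* ΔY libraries, and 1 fell. Of 10 feeder fibroblast markers, 4 fell in females, from a sum of 2873 to 2968 to 1204 to 1310.3, and 4 rose in males, from 1033 to 1146 to 4906 to 5954. Their sum is carried by collagens and *Acta2*. *Postn* was at 68.4, 51.6 and 42.2 against 3.13, 7.58 and 5.05 in females and at 12, 4.14 and 18.7 against 82.8, 117 and 91 in males and passed in both sexes. *Thy1* lay between 39.5 and 96.1 and *Prrx1* between 18.5 and 89.1, and neither passed. *Dcn*, *Lum* and *Twist2* stayed at or below 8.78 in every library. Of 9 EpiLC markers 4 rose and 4 fell in females, and 1 rose and 3 fell in males. Of 7 naive markers 5 rose and 1 fell in females, and 4 rose in males. *Esrrb*, a naive factor, was at 261, 673 and 267 in *Kdm5c* flY libraries, so library B also stood apart there.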

How the data were processed

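RNA-Seq was analysed for 12 samples, 3 per group. Per the labels and the study's methods, rRNA-depleted total RNA was sequenced as single-end reads of 50 bp, and reads were mapped to mm9 with TopHat2 2.1.0 (the labels also name Bowtie2 2.2.6.0, DESeq and Cuffdiff), with up to 1 mismatch. The gene annotation and the strand setting of the counting are not given in the sources used here. The signal values that the authors deposited, in 2 tables, are means of normalized counts per group. The authors' fold changes, p-values and adjusted p-values are also in the tables and were not used.

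The reads of every library were solved from the means, as 3 whole numbers, each over its own size factor (0.696 to 1.28), add up to a mean. Genes with a mean above 10000 (51 to 77 per group) were left out, and 22808 genes were recovered. The solver was tested on simulated data. Recovered libraries carry no replicate number and could not be matched to ESC lines. Reads can hold PCR copies, so depth covers counting error only.

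Limma 3.58.1 (R 4.3.3) was fitted within each sex, and with the interaction of sex and genotype over all libraries, to log2(normalized count + 1) with the trend option of eBayes, two-sided, on genes with at least 1 read. The Benjamini-Hochberg adjustment ran over all genes tested, with a threshold of 0.05. With 3 against 3 libraries, an exact permutation test of a single gene cannot go below 0.10, so none is given. Members with a call or with a group mean of at least 10 are given in every library. Exon lengths, positions and sequences came from the mm9 assembly and its GENCODE annotation, which gave a length for 89.3% of genes. Alternatives were a pseudocount of 0.1, a minimum mean of 1 or 10, limma voom on the recovered reads, scaling by the total of recovered reads, and leaving out each library. Subtracting the level of receptor genes per kb and leaving out 2 male control libraries were added after seeing the data. Members and gene lists were chosen with earlier results of these data known. Lists were written from general knowledge. Some genes and sequences are not reported here, though counts, sums and medians cover all members. *Foxf1a*, *Prac*, *Cbx5* and an entry written as Nestin matched no recovered row. Python 3.11.15, numpy 2.4.6, pandas 2.3.3, numba 0.67.0 and matplotlib 3.10.9 were used.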

Additional observations from a re-analysis of the deposited data

Results flagged for a closer look

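Changes under loss of *Kdm5c* that differed between females and males are listed for Hox genes, each by the interaction test of limma over 12 libraries (10.6% of all genes tested were called in this direction). Values are the male change less the female change on the log2 scale. They were 5.80 for *Hoxb2*, 4.54 for *Hoxb3*, 4.38 for *Hoxb1*, 3.79 for *Hoxb4* and 2.81 for *Hoxa4*. They were 1.98 for *Hoxd8* and 1.86 for *Hoxc4*. The change of *Hoxb2* was -3.67 in females and 2.14 in males, that of *Hoxb4* -2.06 and 1.73, and that of *Hoxb1* -4.24 and 0.14. For *Hoxc4*, whose change in females was -0.37 and did not pass, the difference came with a male change of 1.49 that did not pass either.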

How the results depend on the processing

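No paired analysis was possible because the recovered libraries carry no replicate numbers. Among the 9 Hox genes that a minimum mean of 10 kept in females, 8 were called, 7 lower and 1 higher. Of all 13904 genes kept, 9161 were called, 4521 lower and 4640 higher. That mean is taken over both groups, so a gene can be kept through a high level in 1 group. In males, scaling by the total of recovered reads left 1 call, which was higher, and leaving out both *Kdm5c* flY libraries with reads on receptor genes left 0 (the lone control library is then assumed to vary like the others). Over the fits that left out 1 library, the Hox genes called in females were 13 to 16 (11 to 14 lower, 2 to 3 higher), in males 0 to 2 (0 to 1 lower, 0 to 2 higher) and for the difference between the sexes 5 to 11 (0 to 2 lower, 5 to 10 higher). Of all genes, those fits called 8811 to 9138 of 19334 to 19439 tested in females. They called 333 to 4691 of 21106 to 21850 in males and 3554 to 7334 of 21462 to 22004 for the difference. For the Hox genes, males had 0 calls without *Kdm5c* flY library A or *Kdm5c* ΔY library B or C, and 1 without *Kdm5c* flY library C. Without *Kdm5c* flY library B, the call lower in males was *Hoxd11* (-1.69). The difference between the sexes had 5 calls without female *Kdm5c* fl/fl library B or C or female *Kdm5c* Δ/Δ library C. For these changes the cause was not tested, except that a minimum mean leaves fewer genes and a left-out library fewer samples. No value called in the main fits changed sign under any alternative listed. *Hoxd11* in males, called only without *Kdm5c* flY library B, was at 0.57 without *Kdm5c* flY libraries A and C. The median of all genes was -0.16 in the male test and -0.20 in the test of the sexes, and 0.00 and -0.01 with a minimum mean of 10, and Hox values are read against these. Among the genes called in females, *Hoxb5*, *Hoxb6* and *Hoxb8* had fewer than 10 reads in every library, and *Hoxa2* and *Hoxa4* in every female library. At that depth single genes are less certain than the sums.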
